A study of Mus musculus with 4 samples.

Results

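The erythroid priming genes were 9 genes chosen by name. They were the transcription factor genes Gata1, Klf1 and Zfpm1, the receptor gene Epor, the carbonic anhydrase genes Car1 and Car2, and the membrane protein genes Rhag, Aqp1 and Mfsd2b. All 9 of the 9 had a row and counts in both matrices of the series, out of 32285 genes. They were followed in LSK cells (Lin- Sca-1+ cKit+), a sorted part of the bone marrow made up of stem cells and early progenitors of the blood. Single-cell RNA-Seq (10x Genomics Chromium, 3′ end counting) was run on LSK cells of C57BL/6 mice at homeostasis and 9 days after intraperitoneal 5-fluorouracil (5-FU) at 100 mg/kg, a drug that kills dividing progenitors. In each condition, wild-type cells came from 2 Sin3B F/F mice that carried the floxed allele without the deletion, and knockout cells came from 2 Sin3B H-/- mice (Sin3B F/F with Vav1-iCre), in which the Cre is active in all blood cells from the embryo on. The mice used at homeostasis were male. For the 5-FU mice no sex is specified, and the general rule of the study was to use both sexes equally. Ages of the sequenced mice were not found in the sources used. The cells of a genotype were pooled before a genotype tag was added, so each genotype was 1 pool per condition, and no test between genotypes was possible.

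Erythroid priming is the low-level expression of red cell genes in progenitors that have not yet committed to that lineage. Gata1 binds GATA letters in DNA and is required for red cell and megakaryocyte maturation, Zfpm1 (FOG1) is its cofactor, and Klf1 binds CACCC letters and drives the later red cell genes. Megakaryocytes, the platelet precursors, share Gata1 and Zfpm1 with red cells, while Klf1 favours the red cell fate, so the members do not mark a single lineage. The LSK sort removes cells with the mature red cell antigen Ter-119, so mature red cells should be absent.

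The homeostasis library held 23931 cell barcodes, and their tags split them into 11579 wild type, 4628 knockout, 1441 with both tags and 6283 with no tag. After 5-FU, the 12753 barcodes of the deposited matrix held 5302, 3727, 434 and 3290, respectively. After filters on quality and on lineage genes, 10184 wild-type and 4108 knockout cells were kept at homeostasis, with medians of 6967 and 6606.5 unique molecular identifiers (UMIs, 1 count per captured RNA molecule). After 5-FU, 4855 wild-type and 3307 knockout cells were kept, with medians of 9306 and 10935 UMIs. The targeted gene followed the tags, with Sin3b at 81.7 CPM (UMIs of the gene scaled to a fixed total of UMIs in each pool) in the wild-type pool and 23.3 CPM in the knockout pool at homeostasis, and at 113 and 15.1 CPM after 5-FU. The libraries shared 76 cell barcodes. Condition and library coincide, so values of both conditions are given side by side and were not compared. The sets of cells kept here are larger than those the study analysed in both conditions, and the values of sparse members rest on the set kept. The study left out cells with genes of lineage-primed stem cells, whereas here such cells are among those described.

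For 7 of the 9 members, RefSeq gave a promoter of 250 bases before and 50 bases after the transcription start (build GRCm38.p6), and Car1 and Car2 had no entry. The letters that both factors bind were searched because Gata1 and Klf1 are themselves members. The search for GATA took AGATAA and, as a second form, TGATAA. On the other strand these read TTATCT and, for the second form, TTATCA. The search for CACCC took CCACCC, which reads GGGTGG on the other strand. GATA letters were found in 3 of the 7 promoters, those of Klf1, Rhag and Epor, against 18.6% of 32851 promoters of this length. CACCC letters were found in 7 of 7, against 31.5% of all promoters. The windows of the 3 promoters that held both are shown 5′ to 3′ on the strand of the gene, with the matched letters in capitals. A match is a description of the letters and not a bound site.
Klf1 GATA, chr8:84901890-84901919, plus strand, 80 bases before the start: tttgcctgggtcTTATCAgggaagacagcc
Rhag GATA, chr17:40811106-40811135, plus strand, 31 bases before the start: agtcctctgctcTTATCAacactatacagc
Epor GATA, chr9:21963613-21963642, minus strand, 54 bases before the start: ggtggctgtagcTTATCTgtccccagcctg
Klf1 CACCC, chr8:84901998-84902027, plus strand, 28 bases after the start: gcctgaggtccaGGGTGGacaccagccagc
Rhag CACCC, chr17:40811025-40811054, plus strand, 112 bases before the start: agcatttccattGGGTGGagcgttttaact
Epor CACCC, chr9:21963681-21963710, minus strand, 122 bases before the start: ctgctgtctgccCCACCCcctacactggtt

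Levels of the members in LSK cells spanned from 1.19 CPM (Epor) to 622 CPM (Car2), as the plot of levels by pool shows. Counts come from the 3′ end of transcripts, so a level is given per UMI and not per length. Intervals of 95% are exact Poisson intervals for a level and exact binomial intervals for a ratio, and they cover counting error only, not the difference between mice. They take each UMI as independent, so they do not cover UMIs that gather in few cells. Differences of shares have Newcombe intervals with cells as units, which also leave out the difference between mice.

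**Figure D1:**
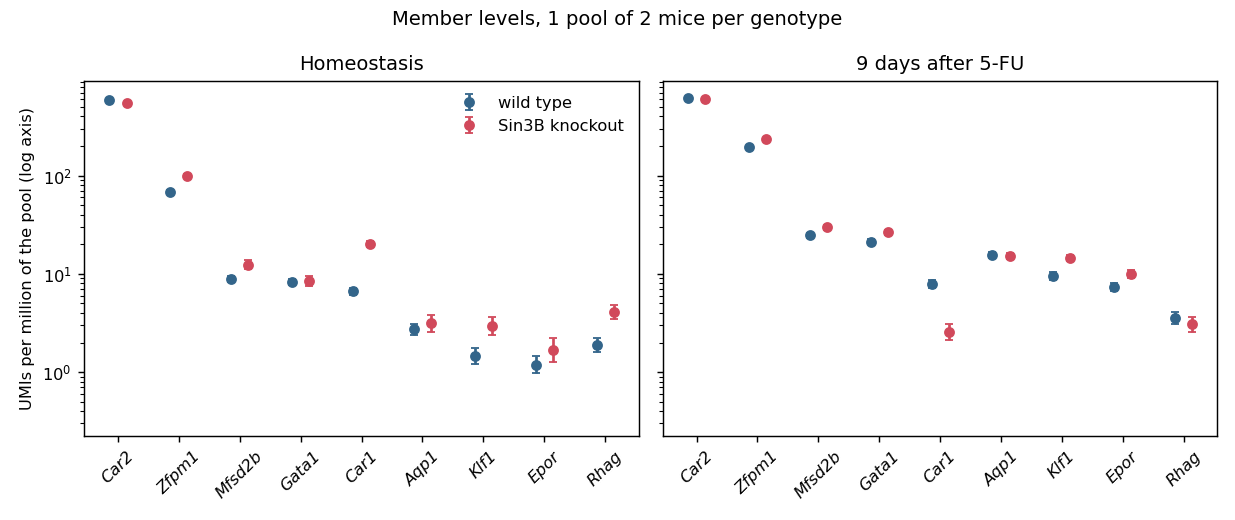
Level of each member in each pool, in CPM on a log axis, at homeostasis (left) and 9 days after 5-FU (right). Points are pools of 2 mice (blue, wild type, and red, Sin3B knockout) and bars are exact 95% Poisson intervals. Car2 stands between 553 and 622 CPM in the 4 pools, Zfpm1 is next, and Car1 is the member whose pools lie farthest apart in both panels.

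To see in which cells the members were expressed, each library was clustered with the members, their erythroid companion genes and Sin3b left out of the clustering genes. Clusters were named from markers, and the markers of the megakaryocyte-erythroid name (Pf4, Itga2b, Gfi1b, Cnrip1, Gp1bb, Gp9, Treml1 and F2rl2) hold no member. At homeostasis, cluster 9 (799 cells, 6 of 8 markers at least 1.5-fold over the other cells) was megakaryocyte-erythroid-like, and its leading genes by fold were Car1, Pf4, Gata1, Mfsd2b, Aqp1 and Treml1, of which Pf4 and Treml1 are platelet genes. After 5-FU, clusters 4 (883 cells) and 7 (438 cells) were, with 7 of 8 markers each, and cluster 7 was led by histone genes such as Hist1h1b and by Esco2, which belong to the S phase of the cell cycle. These cells held fewer UMIs of Ptprc, the gene of the CD45 antigen that carried the tags, than other kept cells. Ptprc stood at 192 against 298 CPM at homeostasis and at 149 against 263 CPM after 5-FU, with a median of 402 against 429 and of 404 against 436 tag UMIs, and the part of tagging in the results was not tested.

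Of the transcription factors, Gata1 (chrX:7959260-7978071, GRCm38) at homeostasis had 687 UMIs in the wild-type pool and 269 in the knockout pool, 8.29 CPM (7.68 to 8.93) and 8.43 CPM (7.45 to 9.502). After 5-FU, it had 1112 and 1162 UMIs, 21.2 CPM (19.97 to 22.5) and 26.6 CPM (25.1 to 28.2). Gata1 was therefore level between the pools at homeostasis and somewhat higher in the knockout pool after 5-FU, where its sign turned in 1 of 10 alternatives run. By cluster, its level was 62.8 CPM in the megakaryocyte-erythroid-like cells at homeostasis and 14.97 CPM in cluster 8, which was led by mitotic genes (Ube2c, Hmmr, Cenpf), and the other clusters of at least 50 cells lay between 1.56 and 5.87 CPM. After 5-FU, it was 85.7 and 83.8 CPM in both megakaryocyte-erythroid-like clusters and at most 11.1 CPM elsewhere.

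Klf1 (chr8:84901928-84905291) was among the lowest members at homeostasis, with 122 UMIs (1.47 CPM, 1.22 to 1.76) in wild-type and 94 UMIs (2.95 CPM, 2.38 to 3.61) in knockout cells. After 5-FU, it had 496 UMIs (9.45 CPM, 8.64 to 10.3) and 632 UMIs (14.5 CPM, 13.4 to 15.7). The knockout pool was higher in both conditions, with intervals that did not overlap. Klf1 stood at 12.4 CPM in the megakaryocyte-erythroid-like cells at homeostasis, against 2.81 CPM or less elsewhere, and at 41.1 and 51.8 CPM in both such clusters after 5-FU, against 4.46 CPM or less elsewhere.

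Zfpm1 (chr8:122282141-122337251) was abundant and broad. It had 5705 UMIs (68.8 CPM, 67.1 to 70.6) in wild-type and 3184 UMIs (99.8 CPM, 96.4 to 103) in the knockout pool at homeostasis, and 10236 UMIs (195 CPM, 191 to 199) and 10196 UMIs (234 CPM, 229 to 238) after 5-FU. Its highest level was also in the megakaryocyte-erythroid-like cells, at 192 CPM at homeostasis and 456 and 428 CPM after 5-FU. An LT-HSC-like cluster (long-term stem cells) of mostly knockout cells followed in each library, at 122 CPM in cluster 1 at homeostasis and 271 CPM in cluster 6 after 5-FU. The mostly wild-type LT-HSC-like clusters 5 and 2 stood at 91.6 and 191 CPM. Unnamed clusters stood near these, at 97.0 CPM (cluster 11) at homeostasis and 200 CPM (cluster 0) after 5-FU. Of clusters with at least 50 cells the lymphoid-like one held the least at homeostasis, 23.9 CPM. Zfpm1 overlaps the gene model Gm20388 on the same strand, which had no row in the files, so reads of both cannot be told apart.

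Epor (chr9:21958897-21963506), the receptor through which erythropoietin keeps red cell progenitors alive, was the lowest member in wild-type cells at homeostasis. It had 99 UMIs (1.19 CPM, 0.971 to 1.45) in wild-type and 54 UMIs (1.69 CPM, 1.27 to 2.21) in knockout cells, with overlapping intervals. After 5-FU, it had 386 UMIs (7.36 CPM, 6.64 to 8.13) and 434 UMIs (9.95 CPM, 9.04 to 10.9), and the intervals did not overlap. In the megakaryocyte-erythroid-like cells, Epor stood at 9.94 CPM at homeostasis and at 29.2 and 28.5 CPM after 5-FU, while the neutrophil-like cells at homeostasis held 1 UMI in all.

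Among the carbonic anhydrases, which interconvert carbon dioxide and bicarbonate, Car1 is an abundant enzyme of red cells, and Car2 is found in many cell types. Car1 (chr3:14766216-14808368) had 552 UMIs (6.66 CPM, 6.12 to 7.24) in wild-type and 645 UMIs (20.2 CPM, 18.7 to 21.8) in the knockout pool at homeostasis. After 5-FU the order was the other way round, with 414 UMIs (7.89 CPM, 7.15 to 8.69) in wild-type and 112 UMIs (2.57 CPM, 2.11 to 3.09) in knockout cells. Few cells set these values, as described further on. The gene model Gm16399, a processed pseudogene, overlaps Car1 on the same strand and had no row in the files.

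Car2 (chr3:14886273-14900770) was the most abundant member, at 591 CPM (586 to 597) in wild-type and 553 CPM (544 to 561) in the knockout pool at homeostasis, and at 622 CPM (615 to 629) and 598 CPM (591 to 605), respectively, after 5-FU. Over clusters of at least 50 cells, its levels lay between 344 and 803 CPM at homeostasis and between 291 and 867 CPM after 5-FU, and the neutrophil-like clusters held the least of these in both. Clusters 13 and 14 at homeostasis, with 17 and 13 cells, held less, at 64.9 and 198 CPM. At homeostasis its highest cluster was cluster 12, an unnamed one, and not the megakaryocyte-erythroid-like one, which stood at 779 CPM. Over clusters of at least 50 cells, the correlation of a member with the mean of the other members was 0.27 for Car2 against 0.78 to 0.97 for the other 8 at homeostasis (13 clusters), and 0.59 against 0.81 to 0.96 after 5-FU (12 clusters). These clusters share a library and its depth, and the correlations are descriptions.

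Of the membrane protein genes, Rhag (chr17:40811126-40840754) encodes a gas channel of the Rh complex in the red cell membrane. It had 156 UMIs (1.88 CPM, 1.60 to 2.20) in wild-type and 131 UMIs (4.11 CPM, 3.43 to 4.87) in the knockout pool at homeostasis, and 188 UMIs (3.58 CPM, 3.09 to 4.13) and 134 UMIs (3.07 CPM, 2.57 to 3.64) after 5-FU. After the megakaryocyte-erythroid-like cells (14.8 CPM), the LT-HSC-like clusters 5 and 1 followed at homeostasis, at 4.70 and 3.98 CPM, while the neutrophil-like cells held 3 UMIs (0.202 CPM). After 5-FU, Rhag stood at 14.01 and 8.28 CPM in clusters 4 and 7, at 6.85 CPM (8 UMIs) in the shallow unnamed cluster 10, and at 2.74 and 1.56 CPM in the LT-HSC-like clusters 2 and 6.

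Aqp1 (chr6:55336432-55348555), a water channel of red cells and vessels, had 226 wild-type UMIs (2.73 CPM, 2.38 to 3.11) and 101 knockout UMIs (3.17 CPM, 2.58 to 3.85) at homeostasis, and 819 (15.6 CPM, 14.6 to 16.7) and 665 (15.2 CPM, 14.1 to 16.5) after 5-FU. The pools overlapped in both conditions. Mfsd2b (chr12:4862440-4874359), the exporter of sphingosine 1-phosphate in red cells and platelets, had 736 UMIs (8.88 CPM, 8.25 to 9.55) and 396 UMIs (12.4 CPM, 11.2 to 13.7) at homeostasis, and 1293 UMIs (24.6 CPM, 23.3 to 26.0) and 1294 UMIs (29.7 CPM, 28.1 to 31.3) after 5-FU. Mfsd2b was higher in the knockout pool in both, though after 5-FU its sign turned in 2 of 10 alternatives run. In the megakaryocyte-erythroid-like cells, Aqp1 stood at 24.8 CPM at homeostasis and at 64.0 and 56.6 CPM after 5-FU, and Mfsd2b at 72.7 CPM and at 98.5 and 105 CPM.

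In order of level at homeostasis, Car2 and Zfpm1 led both pools. In wild-type cells Mfsd2b and Gata1 followed with overlapping intervals, then Car1, Aqp1, and then Rhag, Klf1 and Epor, of which neighbours overlapped. After 5-FU in wild-type cells the order was Car2, Zfpm1, Mfsd2b, Gata1, Aqp1, Klf1, Car1, Epor and Rhag, in which Klf1 overlapped Car1, Car1 overlapped Epor and no other neighbours overlapped.

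**Figure D2:**
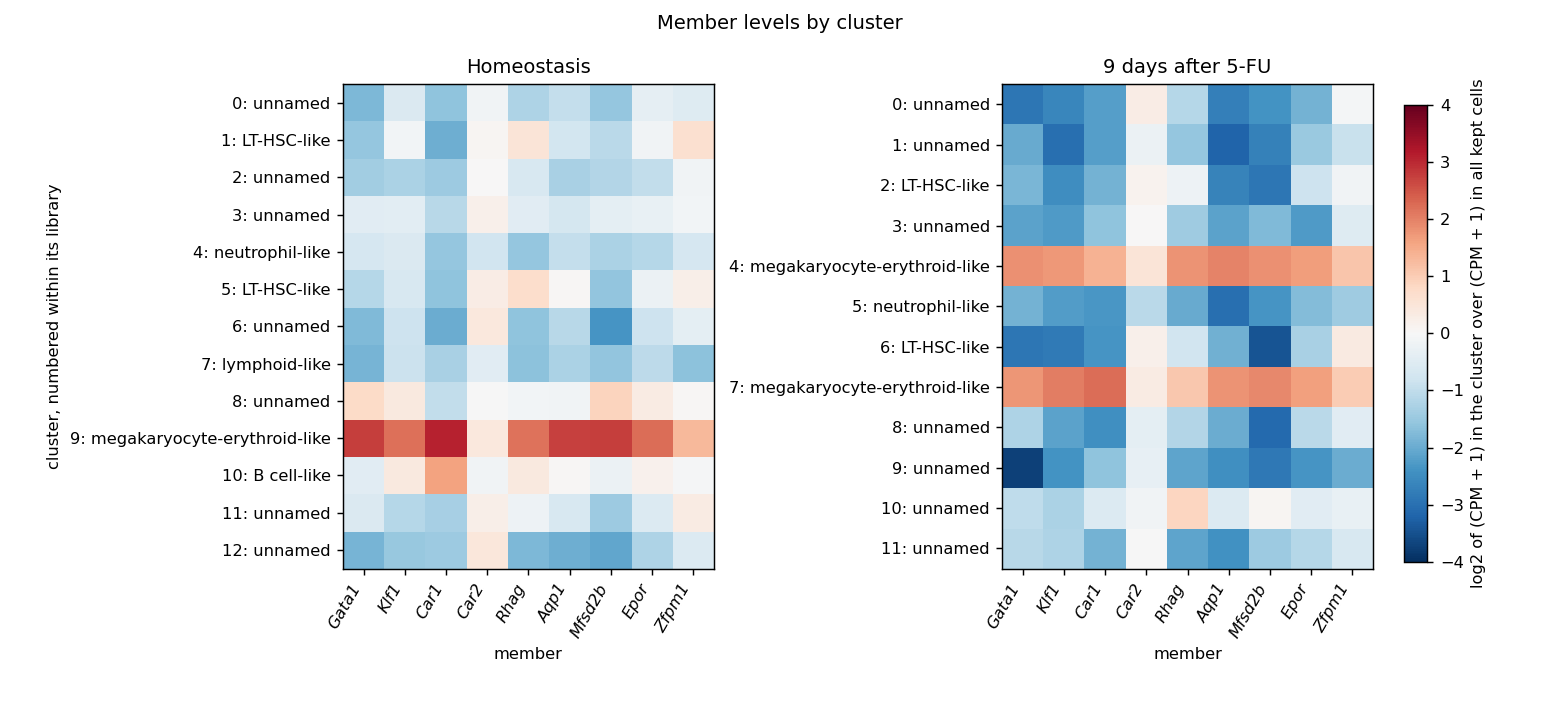
Level of each member in each cluster of at least 50 cells, as log2 of CPM + 1 in the cluster over CPM + 1 in all kept cells of the library (red, higher, and blue, lower), both genotypes together. The megakaryocyte-erythroid-like rows hold the highest level of each member except Car2 at homeostasis, and Car1 is also raised in the B cell-like cluster at homeostasis (33.7 CPM). Several clusters at homeostasis come mostly from a single genotype.

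Detection in single cells was counted after each cell was thinned to 4000 UMIs, which left out 4.75% of wild-type and 5.55% of knockout cells in the homeostasis library and 10.5% and 5.14% after 5-FU. Gata1 was found in 20.4% of 795 megakaryocyte-erythroid-like cells at homeostasis (34.4% unthinned, median depth 7869 UMIs) against 1.83% of neutrophil-like cells (3.88% unthinned, median depth 10750 UMIs), which should lack it. After 5-FU, it was found in 28.7% of 1299 cells (67.0% unthinned, median depth 15573 UMIs) against 2.11% (8.46% unthinned, median depth 21849.5 UMIs). Car1 was spread more widely at homeostasis, where its share was 2.89% in megakaryocyte-erythroid-like cells, 0.761% in neutrophil-like cells and 1.55% in all remaining cells. After 5-FU its shares were 2.46%, 0.151% and 0.218%, respectively. Zfpm1 was found in 51.7% and 80.6% of the megakaryocyte-erythroid-like cells and in 17.7% and 27.6% of the neutrophil-like cells, and Car2 in 91.7% and 93.4% against 67.5% and 59.9%.

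The B cell-like cluster at homeostasis (672 cells), which was led by Ebf1, Vpreb3 and Vpreb1 but also by Elane and Mpo, held Car1 at 33.7 CPM, with 207 UMIs and a UMI in 10.2% of thinned cells. It was made up of 602 wild-type and 70 knockout cells. Its Gata1 and Mfsd2b levels were 5.87 and 8.15 CPM. Barcodes under 100 UMIs, which hold RNA free in the suspension, had Car1 at 87.7 CPM and the beta-globin gene Hbb-bs at 503 CPM, and that cluster held 33.7 and 7.99 CPM. The part of free RNA in its Car1 level was not tested.

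Members were detected in the same cells more often than their single shares gave. Among thinned cells of both genotypes, the observed number of cells with both genes of a pair was divided by the number that the product of both shares gives. For the 21 pairs of the 7 members other than Car2 and Zfpm1, this ratio was above 1 in all cases, from 2.32 (Gata1 and Car1) to 12.7 (Klf1 and Rhag) among 13580 cells at homeostasis and from 2.40 (Gata1 and Car1) to 8.56 (Klf1 and Car1) among 7480 cells after 5-FU. The counts behind the extremes were small. Klf1 and Rhag met in 10 cells against 0.785 expected, and Gata1 and Mfsd2b, the pair with most cells, met in 72 against 10.1 at homeostasis and in 136 against 34.9 after 5-FU. Pairs of Zfpm1 with these 7 stood between 1.13 and 2.20 at homeostasis and between 1.503 and 1.62 after 5-FU, and pairs with Car2 between 0.959 and 1.11 and between 1.04 and 1.14. Cells of a library share its depth and its mix of types, and no test was made.

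**Figure D3:**
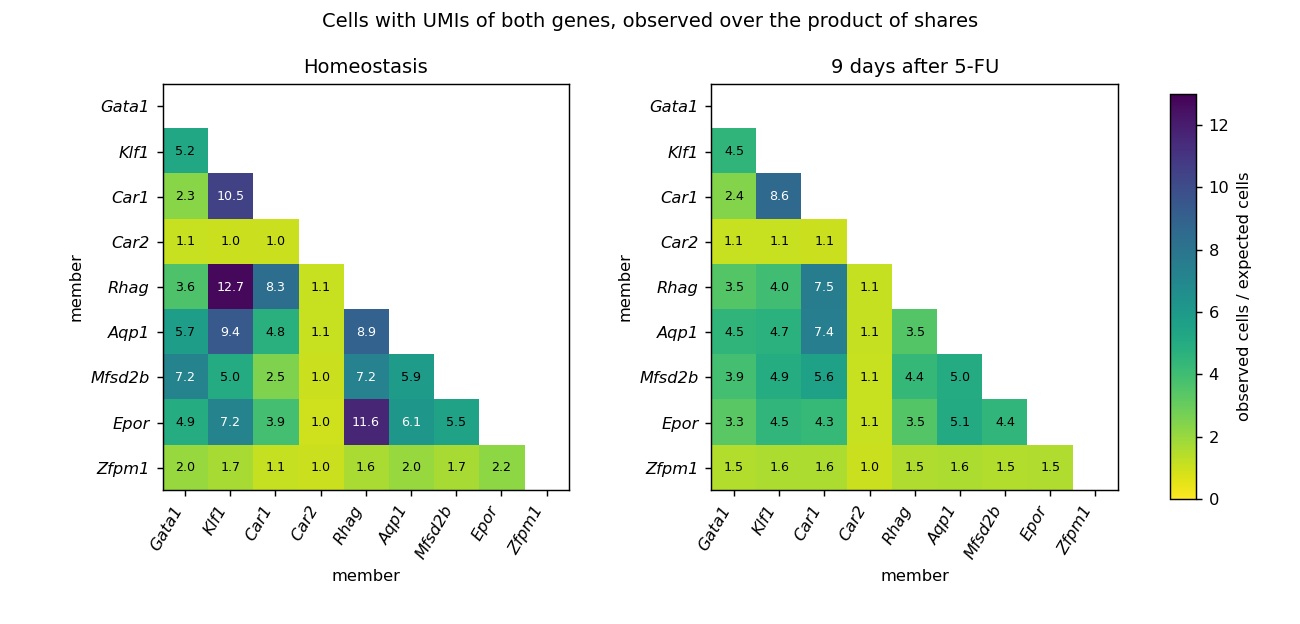
For each pair of members, cells with UMIs of both over the number expected from the product of their shares, in cells of both genotypes thinned to 4000 UMIs (homeostasis left, after 5-FU right). The Car2 and Zfpm1 lines stay near 1 to 2, and pairs among Klf1, Car1, Rhag, Aqp1 and Epor reach the highest values.

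Within the megakaryocyte-erythroid-like cells, many of these ratios fell to about 1. Exceptions at homeostasis were pairs of Car1 or Rhag with Klf1, Aqp1, Mfsd2b, Epor or each other, and Klf1 with Aqp1. At homeostasis (795 cells), Klf1 and Car1 met in 7 cells against 0.868 expected (ratio 8.07), Car1 and Rhag in 11 against 1.30 (8.45), Klf1 and Rhag in 7 against 1.70 (4.12) and Car1 and Aqp1 in 7 against 1.79 (3.90). Rhag and Epor (3.12), Car1 and Epor (3.05) and Klf1 and Aqp1 (2.56) followed, each with 8 cells or fewer. Car1 and Mfsd2b met in 13 against 5.53 (2.35), Rhag and Aqp1 in 8 against 3.51 (2.28) and Rhag and Mfsd2b in 18 against 10.8 (1.66). Klf1 and Epor met in 1 against 1.28 (0.779). Gata1 did not follow, with 6 cells against 6.11 with Klf1 (0.981) and 8 against 9.17 with Rhag (0.872). Gata1 and Mfsd2b met in 52 against 38.9 (1.34). These counts pool both genotypes. Of 9 knockout cells with 5 or more Car1 UMIs at homeostasis, 8 lay in this cluster. Unthinned, 8 of the 9 held Rhag, 7 held Klf1 and 9 held Aqp1. How far the pairs with raised ratios rest on these cells was not tested. After 5-FU (1299 cells), Klf1 and Car1 met in 10 cells against 4.83 (2.07), Car1 and Rhag in 4 against 1.58 (2.54), and Klf1 and Rhag in 10 against 9.66 (1.04).

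Cells with Car1, Rhag or Klf1 also differed in Pf4, a platelet factor and the naming marker with the most counts. At homeostasis, Pf4 stood at 10.9 CPM in the 23 megakaryocyte-erythroid-like cells with a Car1 UMI and at 430 CPM in the 772 without, and 4.35% and 35.2% of these cells held a Pf4 UMI. The 10.9 CPM stand for 1 UMI in 1 cell. With Rhag it was 161 against 434 CPM and with Klf1 217 against 426 CPM, whereas with Mfsd2b it was 766 against 308 CPM and with Aqp1 718 against 393 CPM. After 5-FU, Pf4 stood at 773 CPM in 32 cells with Car1 against 1056 CPM in 1267 without, at 422 against 1082 CPM for Rhag and at 911 against 1074 CPM for Klf1. The level of Pf4 was thus lower beside Car1, Rhag and Klf1 in both libraries and higher beside Mfsd2b and Aqp1, also after 5-FU (1292 against 931 CPM and 1292 against 985 CPM). It was also lower beside the broad Car2, at 304 against 1678 CPM at homeostasis and 1038 against 1209 CPM after 5-FU. Other platelet genes did not follow throughout. The summed megakaryocyte or platelet list was higher beside Klf1, at 66.7 against 52.9 CPM at homeostasis and 158 against 150.3 CPM after 5-FU, and lower beside Car1, at 10.9 against 54.7 CPM and 125 against 152 CPM. Only 30 of these cells held Klf1 at homeostasis, so the first of these values rests on few UMIs. Itga2b was lower beside Car1 at homeostasis, at 32.6 against 142 CPM, and not after 5-FU, at 195 against 186 CPM. The share of cells with a Pf4 UMI did not follow for Klf1, at 33.3% with and 34.4% without at homeostasis and at 48.0% and 47.6% after 5-FU. The hemoglobin genes together stood at 10.9 CPM beside Car1 against 13.6 CPM at homeostasis, and at 54.7 against 34.3 CPM after 5-FU. As for Pf4, the 10.9 CPM of the hemoglobin genes and of the platelet list beside Car1 each stand for 1 UMI in 1 cell.

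Of 509 thinned cells with 3 or more members at homeostasis, 50.1% lay in the megakaryocyte-erythroid-like cluster, and of 960 such cells after 5-FU, 80.1% lay in clusters of that name. For 4 or more members, these shares were 71.4% of 112 and 95.9% of 392 cells. Car2 and Zfpm1 alone give many cells 2 members, so cells with 3 or more were counted for the genotypes. They made up 3.38% of wild-type and 4.66% of knockout cells in the homeostasis library, so that the knockout share was higher by 1.28 percentage points (0.557 to 2.07). The interval held 0 with a tag at 80% of tag UMIs (0.524, -0.532 to 1.97), with a 2-component mixture for the tags (0.257, -0.275 to 0.798) and without removal of the outer 2% of cells (0.478, -0.17 to 1.18). After 5-FU they made up 12.3% and 13.6%, which is 1.28 points higher in the knockout (-0.250 to 2.85). With Car2 and Zfpm1 set aside, cells with 2 or more of the remaining 7 made up 1.31% and 1.65% at homeostasis (0.340 points higher, -0.0923 to 0.837). Their shares after 5-FU were 6.15% and 6.73% (0.578 points higher, -0.539 to 1.73).

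The comparison of genotypes asked how loss of Sin3b altered the members within each library. At homeostasis, 3 of 9 members were at least 2-fold higher in the knockout pool and 0 were 2-fold lower, where 1.9% of 15509 genes with at least 50 UMIs were 2-fold higher and 1.85% 2-fold lower. Rhag was higher by 1.13 on the log2 scale (0.78 to 1.47), Klf1 by 1.003 (0.60 to 1.40), at the edge of the 2-fold line, and Car1 by 1.60 (1.44 to 1.77). By the interval alone, 5 of 9 were above 0 (24.5% of all genes) and 1 of 9, Car2 at -0.10 (-0.12 to -0.07), was below 0 (23.3%). Zfpm1 stood at 0.54 (0.47 to 0.60), Mfsd2b at 0.48 (0.30 to 0.66), Epor at 0.51 (-0.00327 to 0.995), Aqp1 at 0.22 (-0.14 to 0.56) and Gata1 at 0.03 (-0.18 to 0.23). Under the 11 alternatives run, Epor lay between 0.29 and 0.86, Aqp1 between -0.32 and 0.45 and Gata1 between -0.19 and 0.19. The median of the members was 0.51, against 0.01 over all genes.

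The choice of tag rule bears on these values. When a tag had to hold 80% of the tag UMIs of a cell, which left 6134 wild-type and 840 knockout cells, Klf1 stood at 0.22 (-0.76 to 1.01) and Car1 at -1.14 (-1.90 to -0.52), while Rhag stood at 0.99 (0.32 to 1.59), just under the 2-fold line, so that 0 of 9 members were 2-fold higher and 1 of 9, Car1, was 2-fold lower. With a 2-component mixture for the tags, Klf1 fell just under the line at 0.992 (0.68 to 1.31), while Rhag at 1.001 (0.73 to 1.28) and Car1 at 1.28 (1.16 to 1.41) were past it. Thinned to 4000 UMIs per cell, Klf1 stood at 0.54 (-0.13 to 1.16) and Rhag at 0.94 (0.42 to 1.45). Rhag was higher in the knockout pool under all 11 alternatives run, between 0.84 and 1.23.

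After 5-FU, 0 of 9 members were 2-fold higher (1.25% of 13510 genes) and 1 of 9, Car1, was 2-fold lower (1.51%). Car1 stood at -1.61 (-1.93 to -1.32). Without removal of the outer 2% of cells, its interval held 0 (-0.19, -0.40 to 0.02). By the interval, 5 of 9 were above 0 (23.5% of all genes) and 2 of 9, Car1 and Car2, were below 0 (27.7%). The 5 above 0 were Klf1 at 0.62 (0.44 to 0.79), Epor at 0.44 (0.23 to 0.64), Gata1 at 0.33 (0.21 to 0.45), Mfsd2b at 0.27 (0.16 to 0.38) and Zfpm1 at 0.26 (0.22 to 0.30). Rhag stood at -0.22 (-0.55 to 0.11) and Aqp1 at -0.03 (-0.18 to 0.12). Under the 10 alternatives run, Rhag lay between -1.02 and -0.18 and Aqp1 between -0.64 and 0.04.

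The makeup of the pools also differed after 5-FU. Megakaryocyte-erythroid-like cells made up 13.8% of wild-type and 19.6% of knockout cells (5.78 percentage points more, 4.13 to 7.46), and they were deeper than the rest. At homeostasis they made up 5.401% and 6.06% (0.661 points more, -0.166 to 1.54). When the 5-FU pools were given the same cluster makeup, Klf1 stood at 0.00, Gata1 at -0.14 and Mfsd2b at -0.20. The point values of Epor and Zfpm1 were above 0 under all 10 alternatives run, this one among them, with lowest values of 0.12 and 0.02. Values at the same makeup have no interval. For Epor, the interval held 0 both within the megakaryocyte-erythroid-like cells (-0.04, -0.26 to 0.20) and in the other cells (0.13, -0.31 to 0.57). Pooled levels alone cannot tell more cells of a type from more RNA per cell.

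Within the megakaryocyte-erythroid-like cells at homeostasis, 550 wild-type against 249 knockout, 3 of 9 members were 2-fold higher in the knockout (0.569% of 10013 genes) and 0 were 2-fold lower (1.08%). Klf1 had 38 and 48 UMIs (8.12 and 21.2 CPM), a log2 ratio of 1.38 (0.74 to 2.04). Rhag had 49 and 54 UMIs (10.5 and 23.9 CPM), a log2 ratio of 1.19 (0.60 to 1.78). Car1 had 126 and 535 UMIs (26.9 and 236 CPM), a log2 ratio of 3.13 (2.85 to 3.43). The intervals of 5 of 9 were above 0 (8.62%), with Mfsd2b at 0.41 (0.14 to 0.67) and Zfpm1 at 0.17 (0.0023 to 0.33) beside these 3, and that of 1 of 9, Car2 at -0.12 (-0.20 to -0.04), was below 0 (8.54%). Gata1, with 303 and 133 UMIs (64.7 and 58.8 CPM), stood at -0.14 (-0.44 to 0.16). Without cells with 5 or more Car1 UMIs, Rhag stood at 0.63 (-0.09 to 1.32), Klf1 at 1.08 (0.33 to 1.83) and Car1 at -1.38. The count of 3 also rested on the tag rule. With a 2-component mixture for the tags, none of these 3 reached the 2-fold line, with Klf1 at 0.98 (0.28 to 1.75), Rhag at 0.63 (-0.03 to 1.32) and Car1 at -0.10 (-1.07 to 0.85). Mfsd2b stood at 0.13 (-0.12 to 0.38), so that of the 5 intervals only those of Klf1 and Zfpm1 were above 0. The share over all genes was not computed with this rule. The interval of Mfsd2b also held 0 without removal of the outer 2% of cells (0.19, -0.08 to 0.45) and without a lineage filter (0.26, -0.03 to 0.54). That of Zfpm1 held 0 under the same alternatives, at -0.00892 (-0.18 to 0.16) and 0.12 (-0.06 to 0.29). With a tag at 80% of tag UMIs, the intervals of Klf1 (0.56, -2.95 to 2.65), Rhag (0.49, -1.38 to 1.86) and Zfpm1 (0.34, -0.10 to 0.75) held 0, while Mfsd2b stood at 0.98 (0.27 to 1.63).

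Within the same class after 5-FU, 672 wild-type against 649 knockout cells, 0 of 9 members were 2-fold higher (0.389% of 11063 genes) and 1 of 9, Car1, was 2-fold lower (0.832%). Car1 stood at -2.26 (-2.59 to -1.94), and at -0.95 with the 2-component mixture and -0.82 without cells with 5 or more Car1 UMIs. It was thus short of the 2-fold line in both, and the share over all genes was not computed under these alternatives. The intervals of 0 of 9 lay above 0 (15.5%) and those of 7 of 9 lay below 0 (16.5%). Aqp1 had 721 and 626 UMIs (73.8 and 50.5 CPM), a log2 ratio of -0.55 (-0.70 to -0.39). Rhag had 136 and 119 UMIs (13.9 and 9.61 CPM), a log2 ratio of -0.53 (-0.90 to -0.17), and Gata1 had 884 and 996 UMIs (90.5 and 80.4 CPM), a log2 ratio of -0.17 (-0.30 to -0.04). Mfsd2b, Zfpm1 and Car2 lay between -0.17 and -0.04. Klf1, at 0.12 (-0.06 to 0.30), and Epor, at -0.04 (-0.26 to 0.20), had intervals that held 0. The count of 7 rested on the settings. The interval of Gata1 held 0 with the mixture (-0.03, -0.15 to 0.09), with a tag at 80% of tag UMIs, at Leiden resolution 2 and without the cluster led by histone genes. That of Mfsd2b held 0 with the mixture (-0.06, -0.17 to 0.05) and without the histone cluster. That of Car2 held 0 without a lineage filter (-0.03, -0.07 to 0.01), without Car1-high cells and when clustered without genes that differ. The intervals of Aqp1 and Rhag were below 0 under all 11 alternatives run. The 5 members that were higher in the whole knockout pool after 5-FU had no interval above 0 within this class.

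**Figure D4:**
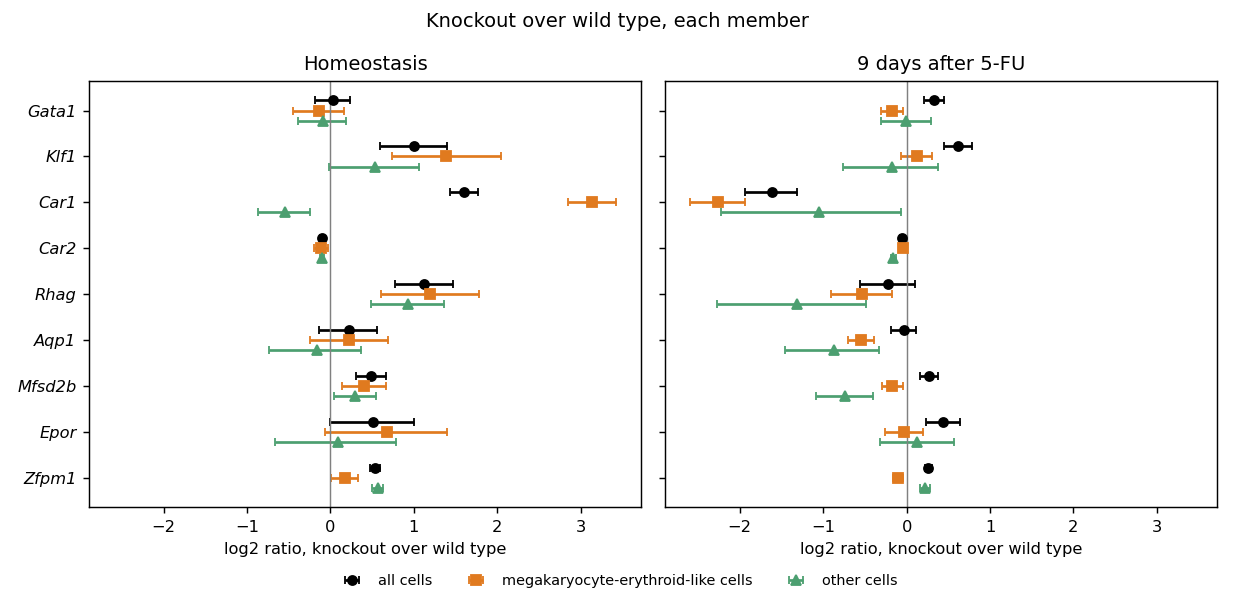
Log2 ratio of each member, knockout over wild type, in all cells (black circles), in megakaryocyte-erythroid-like cells (orange squares) and in other cells (green triangles), with exact 95% intervals for counting error. Klf1, Rhag, Mfsd2b, Epor and Zfpm1 lie right of 0 in each group at homeostasis, with every interval above 0 only for Rhag, Mfsd2b and Zfpm1. After 5-FU the orange squares lie at or left of 0 except for Klf1 at 0.12.

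Outside these cells, the members other than Car2 and Zfpm1 were sparse. At homeostasis, Rhag was higher in the other knockout cells (107 and 77 UMIs, log2 ratio 0.93, 0.48 to 1.36), as were Zfpm1 (0.57, 0.50 to 0.63) and Mfsd2b (0.30, 0.04 to 0.54). Car1 (-0.55, -0.87 to -0.25) and Car2 (-0.10, -0.13 to -0.08) were lower. Car1 had 426 and 110 UMIs in these other cells. Of both genotypes together, 207 UMIs lay in the B cell-like cluster 10, which held 602 wild-type and 70 knockout cells. The part of that uneven makeup in the Car1 ratio was not tested. In all cells, Rhag stayed between 0.84 and 1.23 under the 11 alternatives run, the same cluster makeup among them. The value at the same makeup has no interval. Several clusters hold few cells of a genotype, so it cannot tell makeup from genotype. The pools also differed in makeup. LT-HSC-like cells, the next highest for Rhag, were 1364 of 10184 wild-type and 1421 of 4108 knockout cells, and within them Rhag had 40 and 42 UMIs (4.27 and 4.31 CPM), a log2 ratio of 0.01 (-0.65 to 0.67). After 5-FU, Rhag (52 and 15 UMIs) stood at -1.31 (-2.28 to -0.49), Aqp1 at -0.87 (-1.45 to -0.33) and Mfsd2b at -0.74 (-1.09 to -0.40), while Zfpm1 stayed above 0 at 0.22 (0.17 to 0.28). Car1 (32 and 11 UMIs) stood at -1.05 (-2.23 to -0.06) and Car2 at -0.16 (-0.19 to -0.13). In LT-HSC-like cells, Zfpm1 was higher in the knockout in both libraries, at 0.42 (0.30 to 0.55) and 0.38 (0.27 to 0.49). Aqp1 had 29 and 10 UMIs there at homeostasis, a log2 ratio of -1.55 (-2.80 to -0.52), and Rhag had 26 and 6 UMIs after 5-FU, a log2 ratio of -1.80 (-3.46 to -0.58). The genotypes filled different LT-HSC-like clusters in both libraries. At homeostasis cluster 1 held 137 wild-type and 1368 knockout cells and cluster 5 held 1227 and 53. After 5-FU cluster 2 held 720 and 244 and cluster 6 held 75 and 409, and these clusters stood at 191 and 271 CPM for Zfpm1. Other clusters at homeostasis were also uneven, with 1714 wild-type and 26 knockout cells in cluster 0 and 127 and 1337 in cluster 2. The level of such a cluster cannot be told apart from genotype.

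The Car1 values rested on a handful of cells. At homeostasis, 9 knockout cells with 5 or more Car1 UMIs held 563 of 645 UMIs (87.3%), with up to 145 in a cell, and 10 such wild-type cells held 180 of 552 (32.6%), with up to 42. After 5-FU, 14 wild-type cells held 323 of 414 UMIs, with up to 139 in a cell, and 5 knockout cells held 58 of 112, with up to 22. Without these cells, Car1 stood at 4.49 CPM in wild-type and 2.57 CPM in knockout cells at homeostasis, a log2 ratio of -0.79 (-1.16 to -0.45), and at 1.73 and 1.24 CPM after 5-FU, a log2 ratio of -0.48 (-1.004 to 0.01). The direction at homeostasis was thus set by 9 knockout cells of 4108. In the homeostasis value without these cells, the part of the mostly wild-type B cell-like cluster was not tested.

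**Figure D5:**
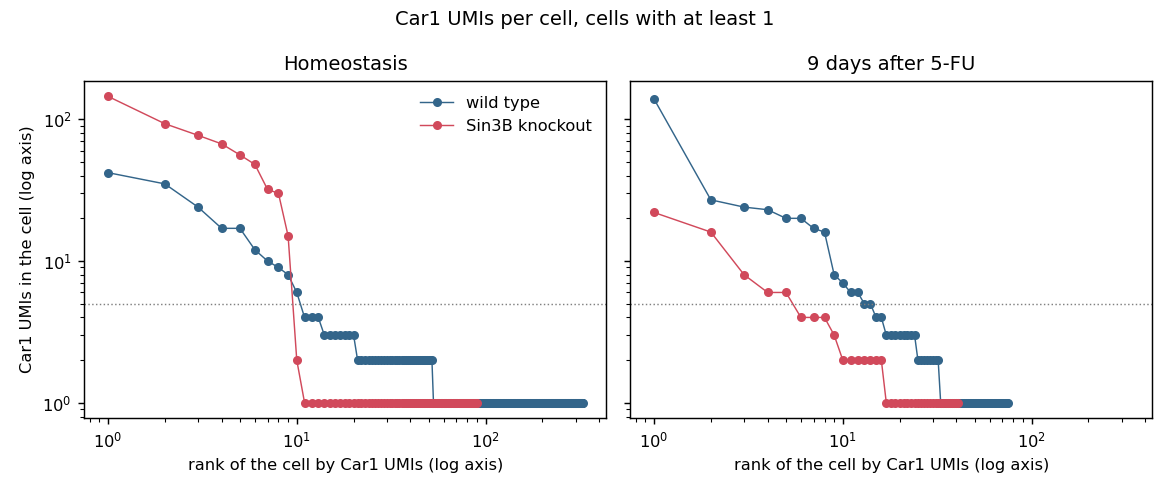
Car1 UMIs per cell (log axis) against the rank of the cell (log axis), for cells with at least 1 Car1 UMI, wild type in blue and Sin3B knockout in red, with the dotted line at 5 UMIs. At homeostasis 9 knockout cells lie above the line and reach 145 UMIs, and after 5-FU 14 wild-type cells do and reach 139.

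These Car1-high cells carried many of the other members. Over the 4 pools their median was 6.5 to 7 of 9 members detected, unthinned, at median depths from 15290.5 to 22378 UMIs. Car1 is among these by selection, and more members are detected in deeper cells. No other cells of like depth were counted beside them. Of the 9 knockout cells at homeostasis, 8 lay in the megakaryocyte-erythroid-like cluster, 7 held Klf1, 8 held Rhag, 9 held Aqp1 and 3 held Pf4. Of the 10 wild-type cells, 3 lay in that cluster, 7 held Klf1, 7 Rhag and 7 Aqp1, and 0 held Pf4. After 5-FU, all 14 wild-type and all 5 knockout cells lay in the megakaryocyte-erythroid-like clusters, with Klf1 in 12 and 5, Rhag in 2 and 1, and Pf4 in 8 and 5. Hemoglobin genes, which mark maturing red cells, gave 1 and 2 UMIs in all in the wild-type and knockout cells of this kind at homeostasis, and 12 and 15 UMIs after 5-FU.

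Barcodes that received no tag held more Car1 than the kept cells. At homeostasis the 6283 barcodes without a tag had Car1 at 78.4 CPM (75.7 to 81.1) against 10.4 CPM (9.85 to 11.0) in kept cells, Klf1 at 6.26 against 1.88 CPM, Rhag at 7.65 against 2.50 CPM and Aqp1 at 6.68 against 2.85 CPM. Gata1, at 11.7 against 8.33 CPM, and Car2, at 544 against 581 CPM, were closer. After 5-FU the 3290 barcodes without a tag had Car1 at 41.5 CPM against 5.47 CPM, whereas Klf1 stood at 12.6 against 11.7 CPM and Rhag at 2.79 against 3.35 CPM. In UMIs, the barcodes without a tag at homeostasis held 3307 of Car1, the kept cells 1197, barcodes with both tags 484, and tagged cells removed by the quality and lineage filters 945 and 758, the last at 109 CPM.

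Other genes of the pathway were read from 4 lists. In the erythroid programme list (transcription factors, membrane skeleton and surface genes), 24 of 27 genes had at least 50 UMIs at homeostasis. Of these, 3 were 2-fold higher in the knockout pool and 0 lower (1.9% and 1.85% of all genes), and 14 had intervals above 0 and 3 below 0 (24.5% and 23.3% of all genes), with a list median of 0.20. The 3 were the blood group genes Kel (30 and 27 UMIs, log2 ratio 1.23, 0.42 to 2.02) and Ermap (34 and 41 UMIs, 1.64, 0.96 to 2.35) and the cholesterol-binding Tspo2 (34 and 28 UMIs, 1.10, 0.32 to 1.86), all with few counts. Within megakaryocyte-erythroid-like cells at homeostasis, 0 of the 17 genes with at least 50 UMIs passed the line (0.569% and 1.08% of all genes). Kel, Ermap and Tspo2 fell under 50 UMIs there and are not among the 17, and their ratios were also above 2-fold, with Ermap at 11 and 32 UMIs (2.55, 1.56 to 3.73), Tspo2 at 12 and 25 (2.08, 1.06 to 3.24) and Kel at 13 and 16 (1.34, 0.20 to 2.52). After 5-FU, 0 of 21 passed the 2-fold line in either direction, 6 had intervals above 0 and 10 below 0 (23.5% and 27.7% of all genes), with a median of 0.02.

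In the heme synthesis list, 0 of 9 genes at homeostasis and 0 of 8 after 5-FU passed the 2-fold line in either direction (1.9% higher and 1.85% lower of all genes at homeostasis, 1.25% and 1.51% after 5-FU). By interval, 1 of 9 was above 0 and 0 below at homeostasis (24.5% and 23.3% of all genes), and 4 of 8 were above and 1 below after 5-FU (23.5% and 27.7%). Alad, the enzyme of the step after Alas, was above 0 in both, at 0.36 (0.25 to 0.47) and 0.54 (0.45 to 0.63), and Alas1, which makes the first enzyme of the pathway, was the 1 below 0 after 5-FU, at -0.22 (-0.35 to -0.10). In the late erythroid list, 6 of 9 and 4 of 9 genes had at least 50 UMIs, none of which passed the line. The globin genes did not move together at homeostasis, while after 5-FU both beta-globin genes with at least 50 UMIs were higher in the knockout pool. The beta-globin gene Hbb-bt had log2 ratios of 0.67 (0.54 to 0.79) in the homeostasis library and 0.64 (0.57 to 0.71) in the 5-FU library. Hbb-bs stood at -0.18 (-0.32 to -0.04) and 0.801 (0.497 to 1.11). At homeostasis, Hba-a1 stood at -0.33 (-0.698 to 0.0166) and Hba-a2 at 0.42 (0.0733 to 0.754). Beta-globin levels were mostly highest outside the megakaryocyte-erythroid-like cells. After 5-FU, Hbb-bt stood at 163 CPM in cluster 8 (90 wild-type and 338 knockout cells), against 21.5 and 39.8 CPM in clusters 4 and 7. Hbb-bs at homeostasis stood at 93.6 CPM in cluster 6, against 5.47 CPM in cluster 9. Only Hbb-bs after 5-FU was highest in clusters 4 and 7, at 7.20 and 13.9 CPM. The part of free RNA in these ratios was not tested. The red cell anion exchanger gene Slc4a1 was near absent in kept cells, with 3 and 6 UMIs in the wild-type and knockout pools at homeostasis. In the erythropoietin signaling list, 2 of 9 genes were 2-fold higher at homeostasis (1.9% of all genes). They were the feedback inhibitors Cish, at 13.3 and 29.7 CPM (log2 ratio 1.16, 1.04 to 1.29), and Socs2, at 8.39 and 22.9 CPM (1.45, 1.30 to 1.60). After 5-FU, Socs2 passed the line at 19.04 and 40.8 CPM (1.10, 0.99 to 1.21) and Cish stood at 0.49 (0.38 to 0.61). Both answer to other cytokine receptors too. Within megakaryocyte-erythroid-like cells at homeostasis, 0 of 8 genes of this list passed the line (0.569% and 1.08% of all genes), with Cish at 0.63 (-0.08 to 1.32) and Socs2 at 0.32 (-0.39 to 0.99). Within these cells after 5-FU, 0 of 9 passed it (0.389% and 0.832%), and both intervals were above 0, with Socs2 at 259 and 581 UMIs (0.82, 0.61 to 1.04) and Cish at 182 and 291 UMIs (0.33, 0.06 to 0.61). Pim1, a kinase gene of the same list, was lower in the knockout pool in both libraries, at -0.20 (-0.23 to -0.17) and -0.48 (-0.51 to -0.46), and Socs3 was lower after 5-FU, at -0.31 (-0.41 to -0.21).

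The genes outside the lists whose levels over clusters were most like the mean of the members were sought among 11219 genes. By the lower of the correlations in both libraries (13 and 12 clusters), they included Tmod1 (0.95 and 0.96), a cap of red cell actin filaments, Pf4 (0.94 and 0.95), Treml1 (0.94 and 0.98), the thrombin receptor gene F2r (0.92 and 0.95), Arap3, Rap1b, the platelet glycoprotein gene Gp5, Unc119 and the integrin gene Itga2b (0.87 and 0.91). Pf4, Treml1 and Itga2b were naming markers of the class. The clusters share a library, and the correlations are descriptions with no test.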

How the data were processed

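The authors deposited raw counts of UMIs per gene and tag for each barcode, made with Cell Ranger (Cell Ranger 4 at homeostasis and cellranger-6.0.1 after 5-FU, per the file headers). The submitters' notes also name Seurat, DESeq2 and the build mm9, and DESeq2 was not used here. The files hold no coordinates, and positions are from GENCODE and RefSeq on GRCm38. The homeostasis matrix held 6794880 barcodes, of which those with at least 2921 UMIs (10% of the 99th percentile of the 10000 largest) were called cells, and its gene order was taken from the 5-FU list (Pearson r of 0.919 across genes, against at most 0.389 with rows shifted).

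Genotypes were called with HTODemux (Seurat 5.3.0, R 4.3.3, positive quantile 0.99) from tags B0096 (wild type) and B0157 (knockout), as the study's methods assign them, since the labels give each library as a mix. Barcodes with both tags were removed. Doublets within a genotype remain, and no further caller was run. The outer 2% of cells in quality measures and cells holding at least 2 lineage-gene UMIs were removed, in all 1915 and 867 tagged cells, of which 609 and 291 by the lineage filter. Clusters came from scanpy 1.11.5 (2000 variable genes, 30 components, 20 neighbours, Leiden resolution 1). Intervals were computed with scipy 1.17.1 in Python 3.11.15, and the ratio was also tested on simulated data. Ratios were read over genes with at least 50 UMIs.

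With 1 pool per genotype, no test was run. Named genes were the members, list genes at or over 2-fold in either library, and the 10 other genes with at least 200 UMIs in each library whose levels over clusters correlated best with the members. Alad, Alas1, Slc4a1, Pim1, Socs3 and the globin genes were named after their values were seen. Some items that these rules select are not reported here. The members and lists were chosen with earlier results of these data known. Of per-sample columns, 0 were left unused.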

Additional observations from a re-analysis of the deposited data

Results flagged for a closer look

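Some members moved in opposite directions in the knockout pools of both conditions, with intervals on either side of 0. In all cells, Car1 stood at a log2 ratio of 1.60 at homeostasis and -1.61 after 5-FU. In megakaryocyte-erythroid-like cells, Car1 stood at 3.13 and -2.26, Rhag at 1.19 and -0.53, Mfsd2b at 0.41 and -0.17 and Zfpm1 at 0.17 and -0.11. The difference between conditions was not tested, since each condition is 1 library and each genotype 1 pool in it. At homeostasis in these cells, the intervals of Rhag (0.63, -0.03 to 1.32) and Mfsd2b (0.13, -0.12 to 0.38) held 0 with a 2-component mixture for the tags, and that of Rhag also did without Car1-high cells (0.63, -0.09 to 1.32). The Car1 value in all cells at homeostasis turned to -0.79 without 9 knockout and 10 wild-type cells, and the Zfpm1 value in megakaryocyte-erythroid-like cells turned to -0.00892 without the removal of the outer 2% of cells. The Car1 value in megakaryocyte-erythroid-like cells at homeostasis turned its sign in 3 of 10 alternatives, down to -1.38. These were both other tag rules and the setting without Car1-high cells.

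Other values were flagged because barcodes outside the comparison held more of a member than the kept cells. Barcodes without a tag at homeostasis held Klf1 at 6.26 CPM, Car1 at 78.4 CPM, Rhag at 7.65 CPM and Aqp1 at 6.68 CPM. Free RNA at homeostasis, from barcodes under 100 UMIs, held Klf1 at 5.77 CPM, Car1 at 87.7 CPM and Aqp1 at 12.5 CPM. Barcodes without a tag after 5-FU held Car1 at 41.5 CPM. Their part in the genotype ratios was not tested.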

How the results depend on the processing

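With 1 pool per genotype, the intervals cover counting error only, and members with few UMIs (Epor, Klf1 and Rhag at homeostasis) have the widest. No paired analysis was possible because the results come from no test and each genotype is 1 pool per library. Of the values for single members under the alternatives, 298 stayed inside the interval of the reported value, 70 fell outside it and 10 turned the sign of a value whose interval had excluded 0. Of the summary values, 48 stayed inside, 25 fell outside and 13 turned such a sign. Values whose interval held 0, such as Gata1 and Aqp1 at homeostasis, also changed sign under some alternatives and are not in these counts of turned signs. The causes were not tested, except where an alternative leaves out the cells or members named. The settings on Car1-high cells, on the sums without 2 or 3 members, on 2 or more of 7 members, on the clustering without genes that differ and on the histone cluster were chosen after seeing the data.

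At homeostasis, the log2 ratio summed over members was 0.03 in all cells and 0.24 in megakaryocyte-erythroid-like cells, the difference in the share of cells with 3 or more members was 1.28 points and that in the share of megakaryocyte-erythroid-like cells 0.661 points. With a tag at 80% of tag UMIs, Car1 stood at -1.14 in all and -1.38 in megakaryocyte-erythroid-like cells, the sums at -0.0156 and -0.23 and the member share at 0.524 points. With a 2-component mixture for the tags, the sums were -0.0119 and -0.0328, Car1 in megakaryocyte-erythroid-like cells -0.10 and the member share 0.257 points. Without removal of the outer 2% of cells, the member share was 0.478 points and Zfpm1 in megakaryocyte-erythroid-like cells -0.00892. The sum in those cells was 0.14 without a lineage filter and 0.40 with that filter at 1 UMI, where Car2 stood at 0.023. Stricter cell calling gave a sum of 0.0578 and a megakaryocyte-erythroid-like share of 2.41 points. The sum was -0.0123 as a mean of CPM per cell and -0.18 standardized over clusters. It was 0.61 without Car2, 0.77 also without Zfpm1 and 0.42 also without Car1. The share with 2 or more members differed by 6.52 points, with 4 or more by 0.469 and with 2 or more of 7 by 0.340. Leiden resolution 2 gave a sum of 0.15 in megakaryocyte-erythroid-like cells and a share of 1.85 points, and resolution 0.5 gave no such cluster and thus no value. Without Car1-high cells, Car1 stood at -0.79 and -1.38 and the sums at -0.01003 and -0.0206.

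After 5-FU, the same values were 0.04, -0.12, 1.28 and 5.78 points. With the mixture, the sums were -0.00625 and -0.0808 and the megakaryocyte-erythroid-like share 2.92 points. The sum was -0.00900 without removal of the outer 2% and -0.0149 as a mean of CPM per cell. Standardized over clusters, Gata1 stood at -0.14, Mfsd2b at -0.20 and the sum at -0.14, and thinned to 4000 UMIs Mfsd2b stood at -0.062 and the sum at -0.0155. The sum was 0.24 without Car2, 0.18 also without Zfpm1 and 0.28 also without Car1. The member share was 3.22 points with the lineage filter at 1 UMI, 5.14 for 2 or more members and 5.84 without thinning. The megakaryocyte-erythroid-like share was 2.66 points at Leiden resolution 2 and 3.16 without the histone cluster.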
